A study of Mus musculus with 19 samples.

Results

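CCI-779 (temsirolimus) is an ester of rapamycin, and the effect of the drug common to SCA3 transgenic and wild-type (wt) mouse brains was measured here by setting all 10 CCI-779 arrays against all 9 placebo arrays. The members are the arrays themselves, chosen by the agent in the labels, and they make up all 19 arrays of the series. They were 5 SCA3 CCI-779, 5 wt CCI-779, 5 SCA3 placebo and 4 wt placebo arrays, each of biotin-labelled RNA from the brain of male mice on a single-colour Affymetrix array. SCA3 mice carry a transgene for spinocerebellar ataxia type 3, a disease of expanded polyglutamine in ataxin-3, and the labels used here give neither its promoter nor the strain of either genotype. Dosing started at 5 weeks of age and went on for 6 weeks, with 20 mg/kg of CCI-779 given into the peritoneum 3 times a week, or placebo as often. Nothing in the labels ties each array to a mouse of its own. A p-value here therefore reflects variation among arrays that may be technical.

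Rapamycin and its esters bind the immunophilin FKBP12, and the pair inhibits mTOR complex 1, a kinase complex that senses growth factors, amino acids and energy. Active mTOR complex 1 promotes ribosome synthesis and translation through S6 kinases and the eIF4E-binding proteins, promotes sterol synthesis through the SREBP transcription factors, and holds autophagy in check at the ULK1 kinase. Most of that control acts on proteins, so an expression array sees only its transcriptional part. The comparison asks what the drug changed in brain RNA whichever genotype received it.

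The brain markers Snap25 and Mbp had log2 intensities of at least 15.09 on every array, and the liver gene Alb at most 2.55. Syt1 had 13.04 to 13.76 and Gad1 13.47 to 14.01. Slc17a7 varied more, from 9.22 to 12.48 (median 10.05), as did Gfap, from 8.99 to 11.28 (median 9.52). Whether dissection differed between arrays was not tested. Array means of linear intensity ran from 443 to 469. Bacterial spike-ins added in fixed amounts before hybridisation had mean log2 intensities of 9.62 to 10.34 (median 10.13) on CCI-779 arrays and 10.50 to 11.26 (median 10.86) on placebo arrays. The groups did not overlap, and the difference was −0.84 (exact permutation within genotype, p = 6.3e-05, the smallest it can give; adjusted p = 0.000283 over 6 array measures). Spike-ins added before labelling differed by −0.66 (exact permutation, adjusted p = 0.000283), and the GAPDH 3′ minus 5′ difference (log2), which tracks RNA integrity, by 0.22 (exact permutation, adjusted p = 0.000315). The actin 3′ to 5′ difference showed 0.15 (exact permutation, adjusted p = 0.442), and the mean log2 intensity of an array was higher by 0.019 under CCI-779 (exact permutation, adjusted p = 0.02). The hybridisation spike-ins and the GAPDH difference divide the arrays as the drug does, so their part in the results cannot be told apart from it. Labelling spike-ins overlapped slightly, reaching 5.56 on CCI-779 arrays and starting at 5.53 on placebo arrays. When the spike-in level entered the model as a covariate, 1 probe set passed the threshold. The probe sets called without the covariate had a median absolute change of 0.28 with it (median SE 0.17), against 0.33 without it (median SE 0.0715). A group of 3 arrays stood apart from the rest by principal components or 3′ to 5′ differences, namely replicate 1 of wt CCI-779 and replicates 2 and 5 of SCA3 CCI-779. Without them the actin difference passed (0.15, exact permutation, adjusted p = 0.0203), as it did without the SCA3 pair alone (0.27, adjusted p = 0.0204 by exact permutation). The mean intensity then did not pass (exact permutation, adjusted p = 0.141 without the 3 arrays and 0.104 without the pair). Only SCA3 placebo replicate 2 held pituitary transcripts, with growth hormone (Gh) at 15.32 and prolactin (Prl) at 12.09, against at most 3.55 and 2.81 elsewhere.

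**Figure D1:**
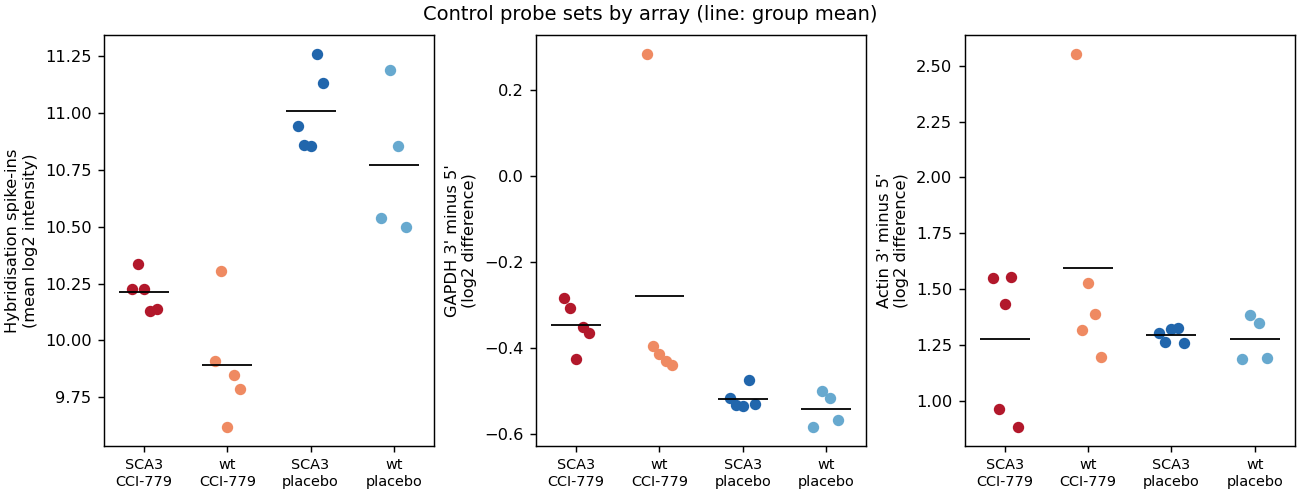
Control measures of each array on the log2 scale: hybridisation spike-in level (left), GAPDH 3′ minus 5′ difference (middle) and actin 3′ minus 5′ difference (right), with a point for an array and a line at the mean of its group. All CCI-779 arrays lie below all placebo arrays for the spike-ins (at most 10.34 against at least 10.50), and wt CCI-779 replicate 1 lies apart for GAPDH (0.28) and actin (2.55).

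CCI-779 raised 3282 of 45037 probe sets (7.29%) and lowered 1297 (2.88%), by a limma model of drug and genotype with Benjamini-Hochberg adjustment over all probe sets and a threshold of 0.05. A gene was represented by its brightest probe set with 1 gene symbol, and 1874 of 18193 genes (10.3%) rose while 689 (3.79%) fell. Among the 10454 genes averaging 4 or more on the log2 scale the shares were 17.8% and 6.48%. Changes were small: the median size among the called probe sets was 0.33 on the log2 scale, 671 of them changed at least 1.5-fold (551 higher and 120 lower) and 122 at least 2-fold (91 higher and 31 lower). All 10 CCI-779 arrays lay above all 9 placebo arrays for 543 probe sets (1.21%) and below them for 105 (0.233%). Calls rose with the level of the probe set, with 21.4% higher and 14% lower at a mean of 10 or more, against 0.212% and 0.248% at a mean under 4. The split between rising and falling calls depends on the scaling, with 71.7% of calls higher as deposited, 52.1% after quantile normalization and 79.8% after centring each array on its median. Median changes over all genes were −0.00103 for all 18193 and 0.0362 for the 10454 brighter ones, the levels to read the medians of gene lists against. Most list members average 4 or more, so counts in the lists are set against the 17.8% higher and 6.48% lower among these brighter genes. These shares hold for the reported fit only. Counts of list members in another setting are given beside the counts over all genes in that setting. Over all 18193 genes the reported fit called 1874 higher and 689 lower.

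The largest rise was that of Fam163b, with log2 intensities of 6.07 to 9.32 (median 7.44) on CCI-779 arrays, against 3.73 to 5.53 (median 4.99) on placebo arrays. The groups did not overlap in either genotype, and the change was 2.81 (SE 0.32, adjusted p = 4.14e-05), a 7.02-fold rise. Atn1 followed, the gene of atrophin-1, a transcriptional corepressor whose polyglutamine stretch is expanded in another ataxia. Its intensities were 6.91 to 9.57 (median 7.82) on CCI-779 arrays, against 5.85 to 6.37 (median 6.03) on placebo arrays, a change of 1.96 (SE 0.27, adjusted p = 0.000194) with no overlap. Rnf208, a RING finger gene, had 8.60 to 10.74 (median 9.22) on CCI-779 arrays, against 7.69 to 8.22 (median 8.002) on placebo arrays, and rose by 1.48 (SE 0.21, adjusted p = 0.000276). In all 3 genes SCA3 CCI-779 replicates 2 and 5 were the highest arrays, and without the 3 arrays that stood apart the changes were 2.31 for Fam163b, 1.53 for Atn1 and 1.09 for Rnf208, all past the threshold. The next risers included the zinc finger genes Zfp316 (1.41) and Zfp385a (1.38), the Myb-related factor Mypop (1.38) and Polr2a (1.37), the largest subunit of RNA polymerase II. Cad (1.26), the multienzyme that starts pyrimidine synthesis and a known substrate of S6 kinase, rose as well. On placebo arrays Zfp316 had 2.60 to 4.84 and Cad 3.06 to 4.30, reaching down to the array medians of 3.25 to 3.37. The size of these 2 rises is therefore uncertain. Without the 3 arrays that stood apart Mypop rose by 0.85 and Polr2a by 0.96, both past the threshold. Further rises were those of Apc2 (1.37), a microtubule-binding relative of the tumour suppressor Apc, Mapre3 (1.30), which tracks microtubule plus ends, and Gprin1 (1.28), an inducer of neurite outgrowth. Tns2 (1.32), a tensin of focal adhesions, the matrix gene Npnt (1.31) and the adhesion receptor Adgrg1 (1.34) also rose. Mapre3 had 9.34 to 10.68 (median 9.81) on CCI-779 arrays, against 8.32 to 8.81 (median 8.69) on placebo arrays, and Gprin1 8.48 to 9.54 (median 8.77) on CCI-779 arrays, against 7.15 to 7.92 (median 7.67) on placebo arrays. Of the 15 risers named, 10 had no overlap between the drug groups, and adjusted p ran up to 0.00937. Choosing the largest rises favours a lack of overlap, which 1.21% of all probe sets showed upward. A second probe set of Npnt showed −0.09 (adjusted p = 0.726) and thus not the rise of the brighter one.

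**Figure D2:**
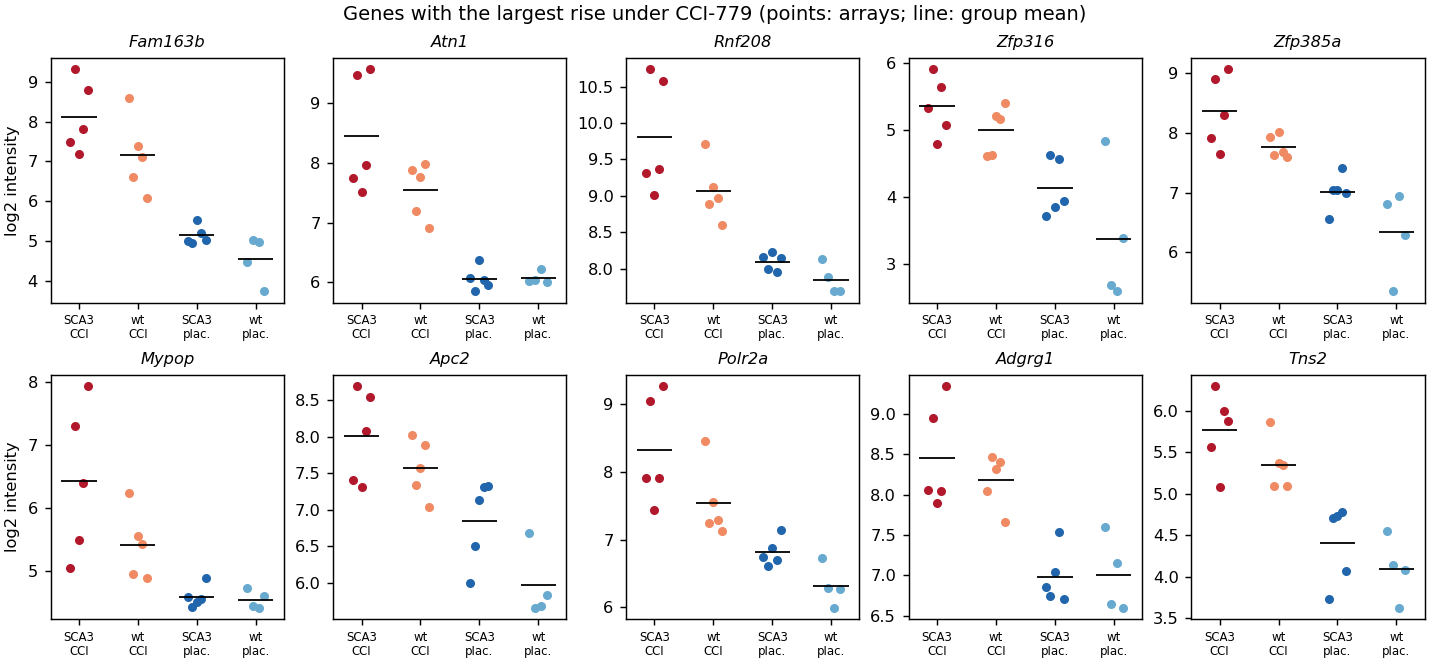
Log2 intensity of the 10 genes that rose most under CCI-779, with a point for each array and a line at the group mean. Most CCI-779 arrays lie above the placebo arrays in both genotypes, as for Fam163b with 6.07 to 9.32 against 3.73 to 5.53, while Zfp316, Mypop, Apc2 and Polr2a overlap.

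The largest falls were smaller than the largest rises. The ubiquitin ligase gene Rnf217 had 5.32 to 6.79 (median 6.53) on CCI-779 arrays, against 6.69 to 7.57 (median 7.28) on placebo arrays, and fell by 0.93 (SE 0.18, adjusted p = 0.00244). Gpr34, a lysophosphatidylserine receptor of microglia, had 3.96 to 6.07 (median 5.36) on CCI-779 arrays, against 5.36 to 6.59 (median 6.16) on placebo arrays, and fell by 0.91 (SE 0.21, adjusted p = 0.00799). Ranges overlapped in both genes. Bdnf, the neurotrophin made by neurons, had 5.67 to 7.17 (median 6.95) on CCI-779 arrays, against 7.13 to 7.82 (median 7.54) on placebo arrays, and fell by 0.76 (SE 0.16, adjusted p = 0.00532), with overlap. Its change was −0.99 in SCA3 (adjusted p = 0.0147) and −0.51 in wt, where it did not pass (adjusted p = 0.298), and a dimmer probe set showed −0.21 (adjusted p = 0.159). Further falls were those of Gpr17 (−0.72), a receptor of oligodendrocyte precursors, Elovl1 (−0.69), an elongase of very long chain fatty acids, and Fdps (−0.81), farnesyl diphosphate synthase of the sterol pathway. Others were the protease inhibitor Serpinb1a (−0.88), Arhgef33 (−0.76) and Rasgrp3 (−0.65), exchange factors for small GTPases, the RNA-binding gene Raly (−0.75), Ninj1 (−0.64), which takes part in rupture of the plasma membrane of dying cells, and the methyltransferase gene Tpmt (−0.61). Ankrd45 (−0.70), A330076H08Rik (−0.64) and Abhd14a (−0.61) completed the 15 named. Of these only Fdps had no overlap between the drug groups, and 0.233% of all probe sets lay wholly below placebo. Second probe sets did not show the fall for Rnf217 (0.18, adjusted p = 0.487), A330076H08Rik (0.54, adjusted p = 0.152), Ninj1 (0.03, adjusted p = 0.769) and Abhd14a (−0.002). Without the 3 arrays that stood apart Ankrd45 did not pass (adjusted p = 0.0843).

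**Figure D3:**
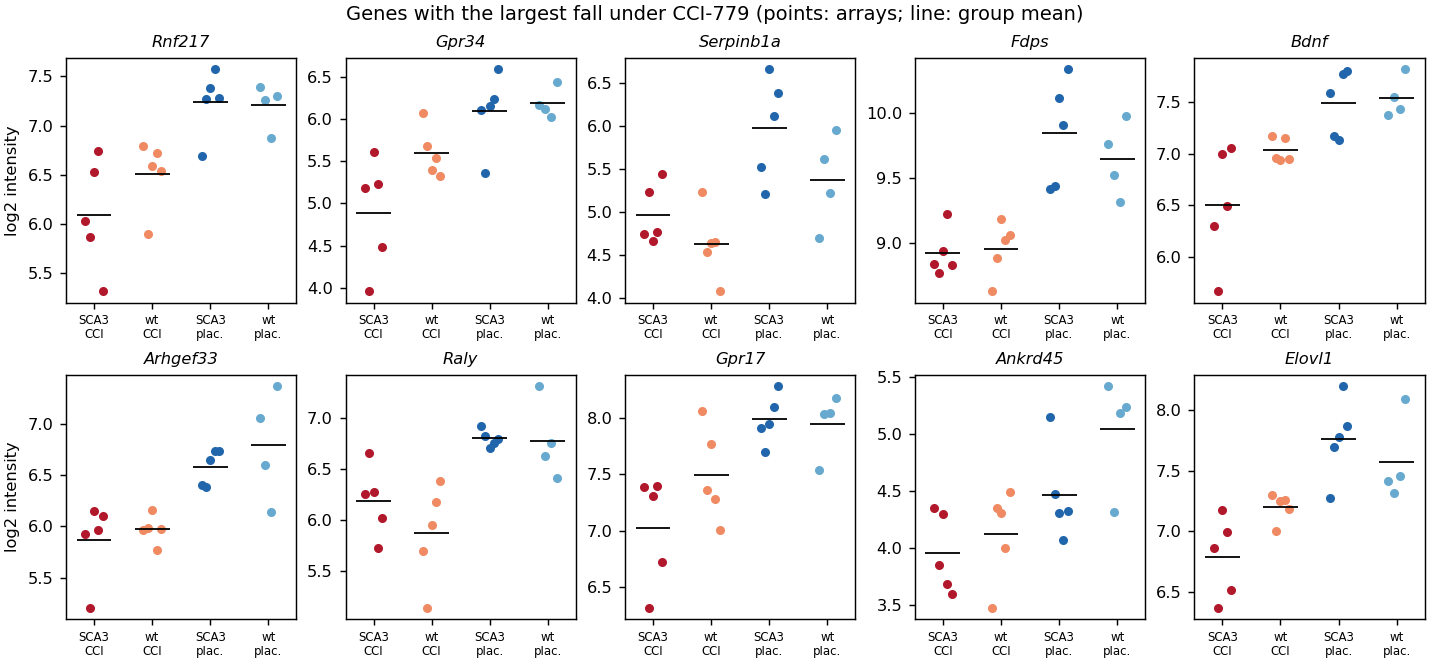
Log2 intensity of the 10 genes that fell most under CCI-779, with a point for each array and a line at the group mean. CCI-779 arrays are lower on average in all 10, and the ranges overlap in all but Fdps (8.62 to 9.22 under CCI-779 against 9.31 to 10.34 under placebo).

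None of the 10 genes with the smallest p-values, whatever their size, overlapped between the drug groups. Choosing by p favours a small spread and a lack of overlap. Of all probe sets 1.21% lay wholly above placebo and 0.233% wholly below. Igfbp4, an insulin-like growth factor binding protein, had 10.18 to 10.62 (median 10.47) on CCI-779 arrays, against 9.60 to 9.86 (median 9.74) on placebo arrays, and rose by 0.72 (SE 0.05, adjusted p = 6.46e-07). Ndufa12, an accessory subunit of respiratory complex I, had 12.87 to 13.01 (median 12.91) on CCI-779 arrays, against 13.18 to 13.38 (median 13.29) on placebo arrays, and fell by 0.35 (SE 0.02, adjusted p = 5.46e-07). The other 8 held Cox5b (−0.38), a subunit of cytochrome c oxidase, the synaptic genes Rph3a and Vamp2 described with their group, and regulators of chromatin, namely Kmt2b (0.79), a histone H3 methyltransferase, and Trim28 (0.57), a corepressor of zinc finger factors. Ranbp2 (0.30) of the nuclear pore, the vesicle motor Myo5a (0.43) and the phosphatase gene Ptp4a2 (0.67) rose as well. For Trim28 and Myo5a the second probe set showed −0.02 and −0.07, neither past the threshold. The probe sets of Ptp4a2 disagreed, with 1 of 4 higher and 1 lower, and changes from −0.46 to 0.67.

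Of 12 mTOR complex genes 1 (8.33%) rose and 1 (8.33%) fell, against 17.8% of brighter genes higher and 6.48% lower. A fit on probe sets averaging 4 or more called 3 higher and 2 lower of 11, against 2261 and 871 of 10454 genes. In the reported fit Mtor, the kinase itself, rose by 0.24 (SE 0.06, adjusted p = 0.015). Telo2, a chaperone of mTOR assembly, fell by 0.31 (SE 0.07, adjusted p = 0.00512). Mtor had 9.77 to 10.14 (median 9.87) on CCI-779 arrays, against 9.40 to 9.80 (median 9.71) on placebo arrays, with overlap. Raptor and Rictor, which define complexes 1 and 2, showed 0.19 (Rptor, adjusted p = 0.0908) and 0.23 (Rictor, adjusted p = 0.0546). Of 26 nutrient-sensing genes of the TSC, Rheb and Rag branch 2 (7.69%) rose and 3 (11.5%) fell, against 17.8% of brighter genes higher and 6.48% lower. After quantile normalization 2 rose and 6 fell, against 1421 and 1297 of all 18193 genes. Tsc2, the inhibitor of Rheb, rose by 0.37 (SE 0.06, adjusted p = 0.000938) and Castor2, an arginine sensor family member, by 0.30, while the Rag GTPase gene Rragd fell by 0.35, and the Ragulator genes Lamtor4 and Lamtor1 by 0.23 and 0.22. The fall of Lamtor1 did not pass without any 1 of 11 arrays (adjusted p up to 0.0754). Downstream, 4 of 15 (26.7%) genes of the S6 kinase and eIF4E arm rose and 0 fell, against 17.8% of brighter genes higher and 6.48% lower: Eif4g3 (0.56), an initiation scaffold, Eef2 (0.48), elongation factor 2, Rps6kb2 (0.55), S6 kinase 2, and Rps6 (0.16), its ribosomal substrate, whose change was 0.08 after quantile normalization (adjusted p = 0.238). Eef2 had 12.61 to 13.18 (median 12.79) on CCI-779 arrays, against 12.18 to 12.52 (median 12.38) on placebo arrays, with no overlap (SE 0.07, adjusted p = 0.00017).

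Fkbp1a, which encodes FKBP12, the intracellular receptor of the drug, showed −0.15 at its brightest probe set and narrowly missed the threshold (SE 0.05, adjusted p = 0.0507). Its second brightest fell by 0.21 (adjusted p = 0.00304), the 1 of its 4 probe sets that passed. Of 13 FKBP genes 2 (15.4%) rose and 0 fell, a share near the 17.8% of brighter genes higher. Fkbp8 rose by 0.44 (SE 0.08, adjusted p = 0.00137) and Fkbp5, a glucocorticoid-induced chaperone partner, by 0.70 (SE 0.19, adjusted p = 0.0219). Fkbp8 had 10.02 to 10.66 (median 10.18) on CCI-779 arrays, against 9.58 to 9.99 (median 9.80) on placebo arrays, without overlap. The rise of Fkbp5 missed the threshold without wt placebo replicate 4 (adjusted p = 0.0502). Upstream, 5 of 20 (25%) genes of insulin, IGF and AKT signalling rose and 1 (Pdpk1) fell, against 17.8% of brighter genes higher and 6.48% lower. Igf1r, the IGF-1 receptor, had 8.92 to 9.33 (median 9.19) on CCI-779 arrays, against 7.80 to 8.89 (median 8.47) on placebo arrays, and rose by 0.71 (SE 0.10, adjusted p = 0.000209). The kinase gene Akt1 rose by 0.63 (SE 0.08, adjusted p = 0.000116) with intensities of 9.95 to 10.67 (median 10.20) on CCI-779 arrays, against 9.42 to 9.80 (median 9.65) on placebo arrays. Pik3r1 (0.47) and Pik3r2 (0.31), regulatory subunits of PI3-kinase, completed a set of 4 genes with no overlap between the drug groups. These 4 had the smallest p-values of the list, which favours a lack of overlap, and 1.21% of all probe sets lay wholly above placebo. A second probe set of Akt1 showed 0.14 (adjusted p = 0.852).

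Autophagy genes rose in 16 of 40 (40%) cases and fell in 2 of 40 (5%), against 17.8% of brighter genes higher and 6.48% lower, with a median change of 0.10. With the GAPDH difference as a covariate 7 rose and 2 fell, against 955 and 649 of all 18193 genes. After quantile normalization 13 rose and 5 fell, against 1421 and 1297 of all 18193. Ulk1, the initiating kinase that mTOR complex 1 inhibits, had 9.53 to 10.22 (median 9.89) on CCI-779 arrays, against 8.44 to 9.34 (median 9.08) on placebo arrays. It rose by 0.90 (SE 0.10, adjusted p = 2.2e-05), in SCA3 by 0.82 and in wt by 0.998, with no overlap. Atg9a, the membrane scramblase of early autophagosomes, rose by 0.55 (SE 0.09, adjusted p = 0.000827) and the phosphoinositide effector Wipi2 by 0.49 (SE 0.10, adjusted p = 0.00263), while its relative Wdr45b fell by 0.17 (SE 0.03, adjusted p = 0.00103). The other that fell was Map1lc3b (−0.17), which encodes an LC3 protein of the autophagosome membrane. A second probe set of Wipi2 showed −0.24 (adjusted p = 0.374). Lysosome and V-ATPase genes went both ways, with 6 of 48 (12.5%) higher and 6 (12.5%) lower, against 17.8% of brighter genes higher and 6.48% lower, and a median of −0.00094. The GAPDH covariate left 3 higher and 5 lower, and median centring 7 higher and 3 lower. Over all 18193 genes the covariate left 955 higher and 649 lower, and median centring 1906 and 430. Within this list the proton pump subunit Atp6v0d1 rose by 0.34 (SE 0.04, adjusted p = 3.28e-05) and the pump's accessory gene Atp6ap2 fell by 0.26 (SE 0.03, adjusted p = 1.55e-05), each without overlap. The hydrolase genes Ctss and Ids fell by 0.34 and 0.20.

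Sterol synthesis was the list with the largest share of falling genes among the 20 described. Of 19 enzymes measured 10 (52.6%) fell and 0 rose, against 6.48% of brighter genes lower, with a median change of −0.37. It was −0.40 in SCA3 and −0.22 in wt, and fits on 1 genotype called 6 enzymes lower in SCA3 and 0 in wt. Over all 18193 genes these fits called 246 lower in SCA3 and only 50 in wt. The mean log2 level of the 18 enzymes with a mean of at least 4 was 8.52 to 8.79 (median 8.70) on CCI-779 arrays, against 8.71 to 9.23 (median 8.94) on placebo arrays, so the groups overlapped slightly. Early in the pathway Fdps, which makes farnesyl diphosphate, had 8.62 to 9.22 (median 8.91) on CCI-779 arrays, against 9.31 to 10.34 (median 9.76) on placebo arrays, and fell by 0.81 (SE 0.13, adjusted p = 0.000504) with no overlap. Idi1, the isomerase before it, had 9.02 to 9.70 (median 9.33) on CCI-779 arrays, against 9.35 to 10.37 (median 9.80) on placebo arrays, and fell by 0.54 (SE 0.14, adjusted p = 0.0202). Fdft1, squalene synthase, fell by 0.20 (SE 0.06, adjusted p = 0.0421), a call lost without any 1 of 14 arrays (adjusted p up to 0.0908). Past squalene, Nsdhl, which takes part in demethylating the sterol, had 7.99 to 8.49 (median 8.25) on CCI-779 arrays, against 8.40 to 9.12 (median 8.75) on placebo arrays, and fell by 0.56 (SE 0.10, adjusted p = 0.00153). Cyp51 (lanosterol demethylase) fell by 0.46, Msmo1 by 0.42, Hsd17b7 by 0.42, Sc5d by 0.40, Dhcr7, the last enzyme of the route, by 0.37 and Tm7sf2, a sterol reductase, by 0.26, with adjusted p from 0.00178 to 0.0274. Tm7sf2 missed the threshold without SCA3 placebo replicate 4 (adjusted p = 0.0504). A second probe set of Sc5d showed −0.05 and did not pass. Without the 3 arrays that stood apart, Idi1 (adjusted p = 0.0503), Tm7sf2 (0.0705) and Fdft1 (0.0877) did not pass, and 8 enzymes fell with a median of −0.31. Over all 18193 genes 581 fell in that fit. Squalene epoxidase (Sqle, −0.38) and lanosterol synthase (Lss, −0.38) lay in the same direction without passing (adjusted p = 0.112 and 0.0706).

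**Figure D4:**
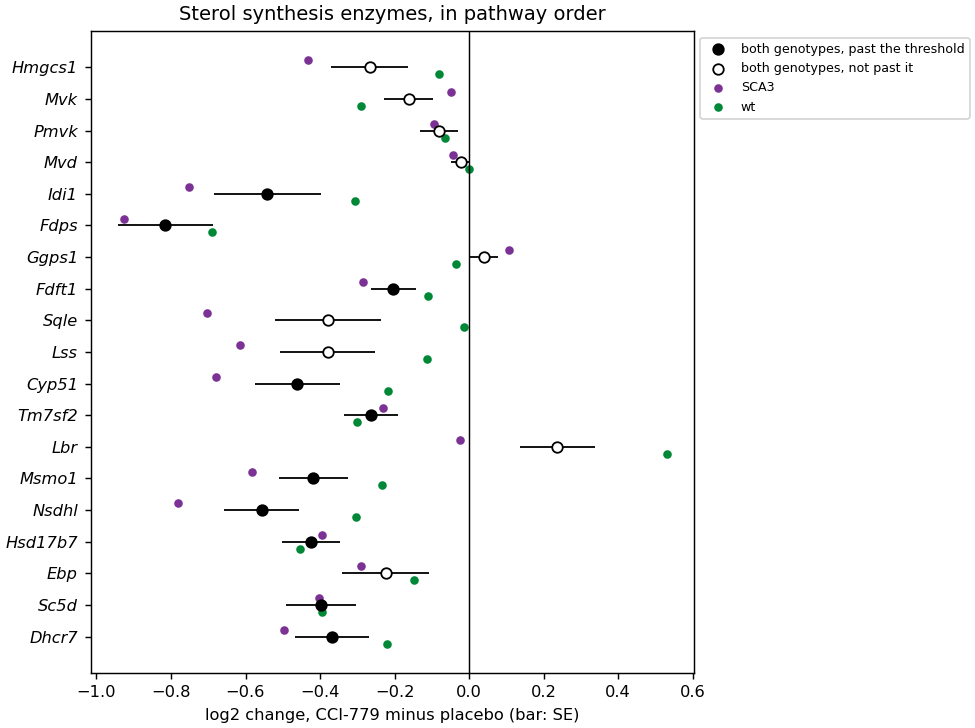
Log2 change (CCI-779 minus placebo) of the 19 sterol synthesis enzymes measured, from the first step at the top to the last, with bars for the SE over both genotypes and small points for each genotype. Filled circles mark the 10 enzymes past the threshold, all below 0, with Fdps lowest at −0.81, and Lbr is the highest at 0.24.

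SREBP factors bind sterol genes next to the CCAAT box factor NF-Y, so the promoters of the fallers are shown with their CCAAT letters. Promoter windows of RefSeq (build GRCm38.p6), from 250 bases before to 50 after the start of a gene, were matched by symbol for 16 of the 19 enzymes and for 8 of the 10 that fell; Fdps and Fdft1 had no match. Capitals mark CCAAT, or ATTGG where it lies on the other strand, at the occurrence nearest before the start, with up to 25 bases on each side. The 5 with the largest falls are shown.
Nsdhl, chrX:72918476-72918520, plus strand: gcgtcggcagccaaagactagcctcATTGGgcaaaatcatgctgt
Idi1, chr13:8885567-8885605, plus strand: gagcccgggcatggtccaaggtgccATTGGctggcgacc
Cyp51, chr5:4104698-4104751, minus strand: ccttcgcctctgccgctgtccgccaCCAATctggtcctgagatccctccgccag
Hsd17b7, chr1:169969206-169969242, minus strand: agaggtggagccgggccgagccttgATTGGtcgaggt
Msmo1, chr8:64733604-64733658, minus strand: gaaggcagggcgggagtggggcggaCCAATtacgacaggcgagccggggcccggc
The marked letters began between 12 and 55 bases before the start. Counting both strands and any window of a gene, CCAAT stood in 16 of 16 sterol genes with a window, against 41.1% of 27025 genes with one. In other lists it stood in 11 of 23 myelin, 25 of 62 oxidative phosphorylation, 11 of 37 ribosomal and 9 of 28 synaptic vesicle genes. Sterol regulatory element letters were sparse in these windows: TCACNCCAC was in 1 of 16 sterol genes against 1.44% of all, CACCCCAC in 1 against 3.30%, TCACCCCA in 1 against 1.77% and GTGGCGTGA in 0 against 0.141%. Shares were no lower in synaptic vesicle genes, where TCACNCCAC stood in 2 of 28, CACCCCAC in 3 and TCACCCCA in 2. In the other lists only TCACNCCAC was found, in 1 of 23 myelin genes. TCACNCCAC spans GTGGCGTGA on the other strand and shares letters with CACCCCAC and TCACCCCA. The 5 strings were searched in all 5 lists, the synaptic vesicle list being added after the counts of the others were seen. A longer form of the sterol regulatory element that contains CACCCCAC was also searched and is given no count here. CCAAT was singled out after its counts were seen; the counts are a description with no test.

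Among genes that regulate SREBP or move cholesterol 5 of 18 (27.8%) rose and 0 fell, against 17.8% of brighter genes higher and 6.48% lower, with a median of 0.10. Its sign was not the same in the genotypes, with −0.00326 in SCA3 and 0.20 in wt. Abca1, a cholesterol exporter, had 9.69 to 10.29 (median 10.10) on CCI-779 arrays, against 9.21 to 9.86 (median 9.56) on placebo arrays, and rose by 0.53 (SE 0.08, adjusted p = 0.000539). The exporter gene Abcg4 rose by 0.31 (SE 0.04, adjusted p = 0.000108), the lipoprotein receptor gene Lrp1 by 0.51 (SE 0.07, adjusted p = 0.000295) and Scap, the sterol sensor that escorts SREBP, by 0.22 (SE 0.04, adjusted p = 0.0012). Second probe sets showed −0.08 for Abcg4 (adjusted p = 0.654) and 0.06 for Lrp1 (adjusted p = 0.998). Only 1 of 3 Abca1 probe sets rose, and changes ran from −0.12 to 0.53. Srebf2, the gene of SREBP2, rose by 0.47 (SE 0.14, adjusted p = 0.0436), a call lost without any 1 of 14 arrays (adjusted p up to 0.0919) and without the 3 arrays that stood apart (0.28, adjusted p = 0.141).

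Myelin and oligodendrocyte genes fell in 12 of 31 (38.7%) cases and rose in 0, against 6.48% of brighter genes lower, with a median of −0.16. With the GAPDH difference as a covariate 6 fell, against 649 of all 18193 genes. Fits on 1 genotype called 10 lower in SCA3 and 0 in wt, against 246 and 50 of all 18193 genes. The median was −0.28 in SCA3 and −0.09 in wt, and no test compared these 2 values. The mean log2 level of the 29 brighter members was 10.42 to 10.71 (median 10.57) on CCI-779 arrays, against 10.59 to 11.10 (median 10.73) on placebo arrays. In bulk brain RNA, fewer oligodendrocytes and less RNA per oligodendrocyte cannot be told apart. Cryab, a small heat shock protein of oligodendrocytes, had 11.17 to 11.72 (median 11.40) on CCI-779 arrays, against 11.77 to 12.21 (median 11.91) on placebo arrays, and fell by 0.51 (SE 0.08, adjusted p = 0.000475) without overlap. Ugt8a, which makes the galactolipids of myelin, had 10.74 to 11.22 (median 10.99) on CCI-779 arrays, against 11.20 to 11.94 (median 11.61) on placebo arrays, and fell by 0.59 (SE 0.10, adjusted p = 0.00109). Cnp, a myelin enzyme, fell by 0.43 (SE 0.07, adjusted p = 0.000832) and Qdpr, a pteridine reductase found in oligodendrocytes, by 0.23 (SE 0.03, adjusted p = 0.000138). Second probe sets showed 0.27 for Cnp (adjusted p = 0.194) and 0.02 for Qdpr, and thus not the falls of the brighter ones. Of 30 microglial genes 9 (30.0%) fell and 0 rose, against 6.48% of brighter genes lower, with a median of −0.11, and 9 of the 30 had a mean under 4. Csf1r, the receptor that keeps microglia alive, had 10.16 to 10.65 (median 10.31) on CCI-779 arrays, against 10.65 to 11.01 (median 10.84) on placebo arrays, and fell by 0.48 (SE 0.07, adjusted p = 0.000384). Only this 1 of 3 Csf1r probe sets fell, and the others showed 0.03 and 0.04. C1qb, a complement subunit, fell by 0.42, the purine receptor gene P2ry12 by 0.57 and the protease gene Ctss by 0.34, with overlap in each.

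Of meningeal and fibroblast markers 4 of 22 (18.2%) rose and 0 fell, a share close to the 17.8% of brighter genes higher, with a median of 0.19. That share depends on the filter: a fit on probe sets averaging 4 or more called 8 of 17 higher, against 2261 of 10454 genes. Without the 3 arrays that stood apart 2 of the 22 rose, and with the GAPDH covariate 1, against 1673 and 955 of all 18193 genes. The mean log2 level of the 17 brighter members was 7.68 to 8.01 (median 7.90) on CCI-779 arrays, against 7.34 to 7.87 (median 7.66) on placebo arrays. What part these markers had in the other results was not tested. Aldh1a2, which makes retinoic acid in the meninges, had 6.42 to 6.89 (median 6.61) on CCI-779 arrays, against 5.73 to 6.38 (median 6.09) on placebo arrays, and rose by 0.60 (SE 0.08, adjusted p = 0.000174). Mgp, Igfbp2 and Igf2 rose by 0.44, 0.52 and 0.49, but none of these passed without the 3 arrays that stood apart (adjusted p = 0.0749, 0.0963 and 0.102), and Igf2 did not pass without any 1 of 7 arrays (adjusted p up to 0.0584). In the choroid plexus list 0 of 20 and in the blood list 0 of 9 genes passed in either direction.

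Of 37 genes of the synaptic vesicle and its SNARE machinery 17 (45.9%) rose and 2 (Cplx1 and Rab3a) fell, and of 23 postsynaptic scaffold and adhesion genes 12 (52.2%) rose and 3 fell, against 17.8% of brighter genes higher and 6.48% lower. The medians were 0.22 and 0.25. Without the 3 arrays that stood apart they were 0.12 and 0.19, with 14 and 10 genes higher, against 1673 of all 18193 genes. With the GAPDH difference as a covariate 12 and 8 rose, against 955 of all 18193. Rph3a, an effector of the vesicle GTPase Rab3, had 10.98 to 11.85 (median 11.38) on CCI-779 arrays, against 9.94 to 10.40 (median 10.18) on placebo arrays, and rose by 1.26 (SE 0.09, adjusted p = 1.26e-06). Vamp2, the vesicle SNARE, had 12.28 to 12.89 (median 12.62) on CCI-779 arrays, against 11.31 to 12.07 (median 11.59) on placebo arrays, and rose by 1.02 (SE 0.09, adjusted p = 3.41e-06). Neither gene overlapped between the drug groups. Syp, an abundant vesicle membrane protein, rose by 0.96 (SE 0.09, adjusted p = 6.58e-06) and Syn1, which tethers vesicles, by 0.40 (SE 0.04, adjusted p = 2.86e-05). At the postsynapse Nlgn2, an adhesion protein of inhibitory synapses, had 9.87 to 11.32 (median 10.73) on CCI-779 arrays, against 9.16 to 10.04 (median 9.51) on placebo arrays, and rose by 1.18 (SE 0.15, adjusted p = 7.8e-05). The scaffold genes Dlgap3, Dlg2 and Dlgap4 rose by 1.004, 0.80 and 0.54. A second probe set of Dlg2 showed −0.15 (adjusted p = 0.739). Homer1, Nrxn3 and Camk2a of the same list were the 3 that fell, by 0.268, 0.141 and 0.406. Like Pdpk1, Map1lc3b, Cplx1, Rab3a, Cox7a2l, Rad23b and Atxn10, they were named after their values were seen. Of 6 neurotrophin genes 2 (33.3%), Bdnf and its receptor gene Ntrk2, fell and 0 rose, against 6.48% of brighter genes lower. The fall of Ntrk2 of 0.18 (SE 0.05, adjusted p = 0.0417) was lost without any 1 of 13 arrays (adjusted p up to 0.0874) and its mean over probe sets was 0.12. Of its 6 probe sets 2 were higher and 1 lower.

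Genes of the ribosome and the mitochondrion differed in direction. Of 42 cytosolic ribosomal protein genes 22 (52.4%) rose and 0 fell, against 17.8% of brighter genes higher and 6.48% lower, with a median of 0.14. With the GAPDH difference as a covariate 13 rose, against 955 of all 18193 genes. Rps24 had 14.16 to 14.28 (median 14.18) on CCI-779 arrays, against 13.90 to 14.14 (median 13.98) on placebo arrays, and rose by 0.19 (SE 0.03, adjusted p = 0.000224) without overlap. Rps29 rose by 0.19, Rpl19 by 0.31 and Rps10 by 0.31. Of 73 oxidative phosphorylation genes 24 (32.9%) fell and 2 rose, with a median of −0.10. The lower share over brighter genes was 6.48%, and over probe sets with a mean of at least 10 it was 14%. After median centring 13 fell, against 430 of all 18193 genes. Of the 24, 12 encode complex I subunits, among them Ndufa12 described above, and 5 encode cytochrome c oxidase subunits. Cox5b had 13.21 to 13.45 (median 13.29) on CCI-779 arrays, against 13.57 to 13.77 (median 13.71) on placebo arrays, and fell by 0.38 (SE 0.03, adjusted p = 3.19e-06), and Cox6a1 fell by 0.19. Uqcrc1, a core subunit of complex III, rose (0.33, SE 0.05, adjusted p = 0.000261), as did Cox7a2l (0.32). Among 22 glycolysis genes 10 (45.5%) rose and 1 fell, against 17.8% of brighter genes higher and 6.48% lower, with a median of 0.06. Without the 3 arrays that stood apart 6 rose with a median of 0.02, against 1673 of all 18193 genes. With the GAPDH covariate 4 rose, against 955 of all 18193. Hexokinase Hk1 (0.30), the neuronal glucose transporter Slc2a3 (0.35) and the neuronal enolase Eno2 (0.32) rose and Pdhb (−0.18), a subunit of pyruvate dehydrogenase, fell. The direction of Slc2a3 turned where all its probe sets were averaged (−0.24).

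Clock genes rose in 7 of 20 (35%) cases and fell in 1, against 17.8% of brighter genes higher and 6.48% lower, with a median of 0.13. With the GAPDH difference as a covariate 4 rose, against 955 of all 18193 genes. Hlf, a clock output factor, had 10.81 to 11.20 (median 10.998) on CCI-779 arrays, against 10.44 to 10.75 (median 10.63) on placebo arrays, and rose by 0.37 (SE 0.06, adjusted p = 0.000628). A second probe set of Hlf showed −0.10 (adjusted p = 0.443). The repressor genes Per3 and Cry2 rose by 0.31 and 0.22, and Csnk1d, the kinase that phosphorylates PER proteins, fell by 0.49 at its brightest probe set. The probe sets of Csnk1d disagreed, with 2 of 5 lower and 1 higher, the second brightest rising by 0.43 (adjusted p = 0.00159). The hour of sacrifice is not given in the labels. Among 16 polyglutamine disease genes and ataxin-3 partners 5 (31.3%) rose and 1 fell, against 17.8% of brighter genes higher and 6.48% lower, with a median of 0.17. Besides Atn1, those that rose were Cacna1a, the P/Q calcium channel gene expanded in another ataxia (0.58, SE 0.08, adjusted p = 0.000282), Htt, the huntingtin gene (0.44, SE 0.08, adjusted p = 0.00168), Rad23b (0.39), a carrier of ubiquitinated proteins, and Atxn3. Only 1 of 3 Htt probe sets rose, and changes ran from −0.07 to 0.44. Atxn10, an ataxia gene kept in the list though its repeat is not polyglutamine, fell (−0.17). Mouse Atxn3, the gene of ataxin-3, had 8.13 to 8.96 (median 8.60) on CCI-779 arrays, against 8.05 to 8.41 (median 8.31) on placebo arrays, and rose by 0.33 (SE 0.07, adjusted p = 0.00555), with overlap. Whether its probe set also reads the transgene was not tested. Prnp, the prion protein gene, had 13.82 to 13.99 (median 13.92) on CCI-779 arrays, against 13.97 to 14.15 (median 14.08) on placebo arrays, and fell by 0.15 (SE 0.03, adjusted p = 0.00204).

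**Figure D5:**
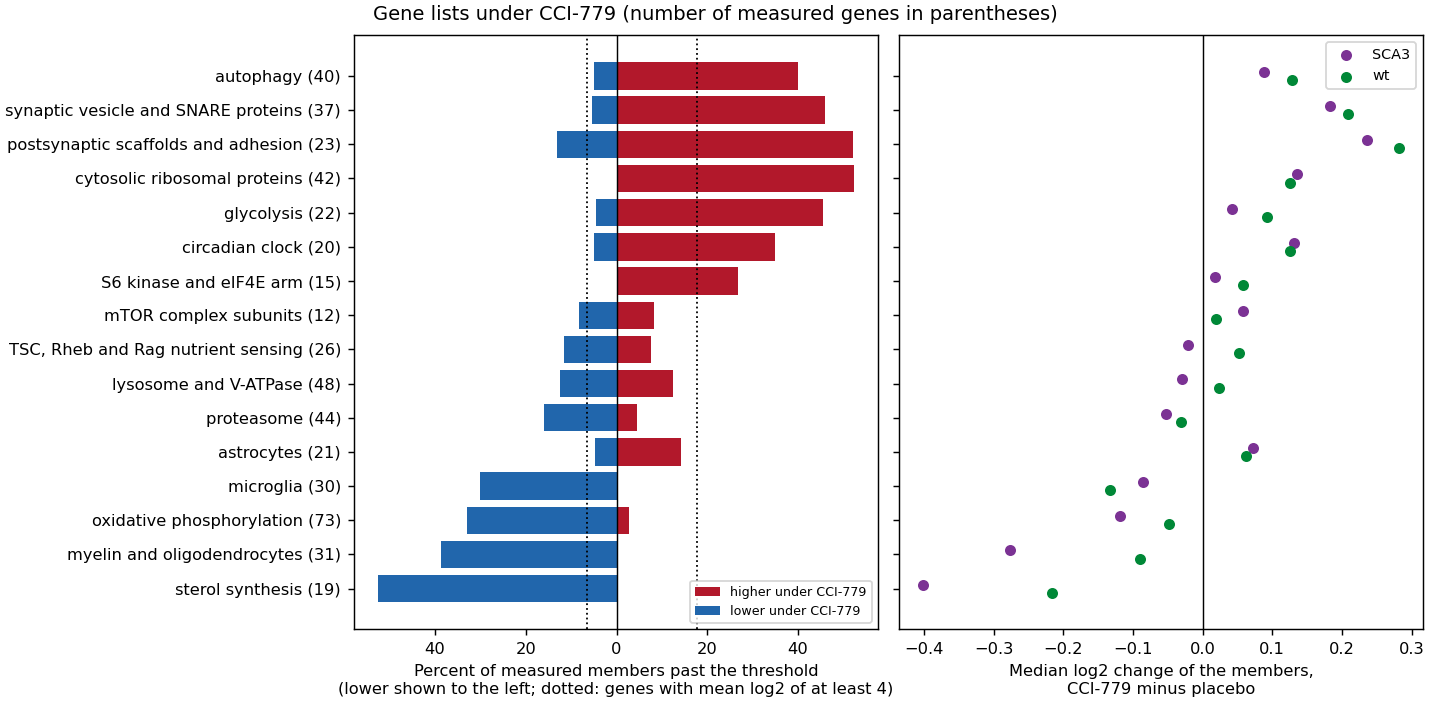
Share of measured genes past the threshold in 16 gene lists (left, percent, higher under CCI-779 to the right and lower to the left, dotted lines at 17.8% of brighter genes higher and 6.48% lower) and the median log2 change of each list in SCA3 and in wt (right). On the right the sterol median is the lowest of the lists in SCA3 (−0.40) and in wt (−0.22) and the postsynaptic median the highest; on the left cytosolic ribosomal (52.4%) and postsynaptic genes (52.2%) have the largest shares higher.

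Among probe sets called in the pooled test, both genotypes shared the direction of the effect. All 4579 called probe sets changed in the same direction in SCA3 and in wt, which the pooled test favours by its construction. In a model of all 4 groups, the drug contrast within a genotype called 2177 probe sets in SCA3 (1483 higher, 694 lower) and 1584 in wt (1311 higher, 273 lower), 750 in both, and 1988 of the pooled calls passed in neither contrast. Fits on the arrays of a single genotype called 1521 in SCA3 and 565 in wt. Across the 10454 brighter genes, which are not independent replicates, the SCA3 and wt effects had a correlation of 0.706, given with no test. The test of the difference between the genotypes, the drug by genotype interaction in limma, called 0 probe sets (0%), with 2028 at an unadjusted p under 0.05, against 2252 that uniform p-values give. Among probe sets with a mean of at least 4 the interaction had 1573 at an unadjusted p under 0.05, against 1024 from uniform p-values, and again called 0. The smallest interaction p-values among genes belonged to Hadhb, a subunit of the mitochondrial fatty acid oxidation enzyme, Ybx3, a cold shock domain protein that binds nucleic acids, and Fubp3, which binds single-stranded DNA elements. Hadhb showed −0.02 in SCA3 and 0.33 in wt (interaction −0.35, SE 0.07, adjusted p = 0.588). Ybx3, called in the pooled test (−0.41), showed −0.61 and −0.19 (interaction −0.42, adjusted p = 0.729). A second probe set of Ybx3 showed 0.06 in the pooled test (adjusted p = 0.911). Fubp3 had opposite signs, −0.40 in SCA3 and 0.37 in wt (interaction −0.77, adjusted p = 0.749).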

How the data were processed

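A single table of linear intensities for the 19 arrays was deposited, and per the submitters' processing notes GCRMA produced it; its version and scanner settings are not given in the sources used here. Intensities spanned 2.26 to 73595 over 45101 probe sets, of which 64 controls were left out of the tests. GCRMA corrects background, normalizes between arrays and summarises probes, so the split between higher and lower depends on it. The deposited values were taken as log2, with no pseudocount and no filter.

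The drug effect was fitted with limma 3.58.1 in R 4.3.3 (lmFit, eBayes) with genotype as a second factor, on 45037 probe sets with Benjamini-Hochberg adjustment and a threshold of 0.05; the residual degrees of freedom were 16. The interaction used 4 group means. Array measures were tested by exact permutation of agent within genotype (31752 arrangements), two-sided, adjusted over 6. The fit was tested on simulated data. All p-values were two-sided.

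Of the probe sets, 34945 had 1 gene symbol, 932 several and 9160 none in the platform annotation; those with several were not named. No array was identical to another (correlations 0.954 to 0.995). The number of arrays limits the precision.

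The members and the 43 gene lists were chosen with earlier results of these data known, and the 20 lists described were picked after all 43 counts were seen. Named genes are the 15 largest rises and 15 largest falls past the threshold with a mean log2 of at least 4, the 10 smallest p-values, up to 4 called members of each described list by smallest p (all called members for the lists of the mTOR complexes, nutrient sensing, S6 kinase, FKBP and sterol synthesis), a fixed set (Mtor, Fkbp1a, Atxn3, Prnp and Srebf2, with some others that are not reported here), and the 3 smallest interaction p-values. Alternatives covered scaling, filters, variance model, covariates, genotypes alone, thresholds and left-out arrays.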

Additional observations from a re-analysis of the deposited data

Results flagged for a closer look

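Of 220 groups of arrays tested, 19 held an array far from its group by Dixon's criterion, where chance alone gives about 11. The array wt placebo replicate 3 stood apart for Atn1 at 6.22 (others 6.01 to 6.05) and Gh at 3.55 (others 2.60 to 2.69). The array wt placebo replicate 4 stood apart for Cad at 3.15 (others 3.51 to 3.56). The array wt CCI-779 replicate 2 stood apart for Rnf217 at 5.90 (others 6.54 to 6.79) and Tpmt at 6.34 (others 5.91 to 5.98). SCA3 CCI-779 replicate 2 stood apart for Arhgef33 at 5.20 (others 5.93 to 6.15), Tpmt at 5.04 (others 5.87 to 6.04) and Fubp3 at 7.88 (others 8.36 to 8.52). The array wt CCI-779 replicate 1 stood apart for Rasgrp3 at 5.96 (others 6.35 to 6.49), Abhd14a at 8.67 (others 8.26 to 8.35), the GAPDH 3′ minus 5′ difference at 0.28 (others −0.44 to −0.39) and the actin 3′ minus 5′ difference at 2.55 (others 1.20 to 1.53). SCA3 placebo replicate 2 stood apart for Myo5a at 11.50 (others 11.71 to 11.78), Gh at 15.32 (others 2.65 to 2.77) and Prl at 12.09 (others 2.71 to 2.81). The array wt placebo replicate 1 stood apart for Prnp at 13.97 (others 14.08 to 14.09). SCA3 placebo replicate 1 stood apart for Hadhb at 12.39 (others 12.50 to 12.53) and the array median of log2 intensity at 3.37 (others 3.26 to 3.29). SCA3 placebo replicate 4 stood apart for the GAPDH 3′ minus 5′ difference at −0.47 (others −0.53 to −0.52). All values are log2 intensities or log2 differences. The pituitary genes Gh and Prl of SCA3 placebo replicate 2 lie outside the lists that the drug comparison describes, and without that array 3992 probe sets passed, against 4579 with it.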

How the results depend on the processing

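Against 4579 probe sets and 2563 genes past the threshold, the spike-in covariate left 1 and 1, the GAPDH covariate 3034 and 1604, SCA3 arrays alone 1521 and 790 and wt arrays alone 565 and 320. With the 3 arrays that stood apart left out and the spike-in covariate added, a setting chosen after seeing the data, 6 probe sets and 3 genes passed. A threshold of 0.01 left 2451 probe sets, and asking for 1.5-fold left 671. Leaving out 1 array at a time gave 3893 to 4827 probe sets and 2189 to 2603 genes. The interaction called 1 probe set under quantile normalization, median centring or a trended robust variance, and 0 to 2 with 1 array left out. Array measures past the threshold stayed at 4 of 6 with any 1 array left out (4 to 4). Beyond the covariates, the cause of these moves was not tested.

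The replicate numbers do not pair the samples (24 same-numbered pairs correlated at −0.307 to 0.29). With them as a block, without the wt CCI-779 array whose label has no number, 4345 probe sets passed, against 4827 without block or that array (a comparison added after seeing the data).

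Changes of sign among named genes and medians of described lists were these. With the spike-in covariate, Mgp was −0.0134 and the TSC, Rheb and Rag median −0.131, which was −0.0569 with the GAPDH covariate, −0.0423 after quantile normalization, −0.0214 in SCA3 arrays alone, −0.0144 with the replicate block, −0.000124 with array weights, −0.00386 without wt CCI-779 replicate 1 and −0.00423 without SCA3 CCI-779 replicate 4, against 0.0142 in the reported fit. The lysosome median, −0.00094, lay above 0 after median centring (0.0156), in the model of 4 group means (0.000559), in wt arrays alone (0.024), without SCA3 CCI-779 replicates 2 and 5 (0.0131), without the 3 arrays (0.000386) and, up to 0.00827, without any 1 of 5 arrays. With the spike-in covariate and the 3 arrays left out, Ids was 0.00335, Mgp −0.166, Igf2 −0.0784, Ntrk2 0.0473, Fkbp1a 0.0404, Fubp3 0.0537, the glycolysis median −0.00362 and the TSC, Rheb and Rag median −0.176. Averaging probe sets gave Lamtor1 0.00192, Ntrk2 0.119 and Slc2a3 −0.243. Alone, SCA3 arrays gave Hadhb −0.0196 and the SREBP and cholesterol transport median −0.00326, and wt arrays gave Fubp3 0.373. Fubp3, near 0 when pooled, was 0.00252 with array weights, 0.0821 without SCA3 CCI-779 replicates 2 and 5, 0.037 without the 3 arrays, and between −0.0943 and 0.0436 (0.00905 without SCA3 placebo replicate 1) with 1 array left out. Of 115 named genes called, 3 did not pass after quantile normalization, 5 after median centring and 20 with the GAPDH covariate.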

Other observations

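The other lists, counted in the same fit, held these genes past the threshold, against 17.8% of brighter genes higher and 6.48% lower. Among cell type and lipid lists, 3 rose and 2 fell of 18 (fatty acid synthesis), 1 rose and 2 fell of 10 (oligodendrocyte precursors), 3 rose and 1 fell of 21 (astrocytes), 3 rose and 1 fell of 26 (endothelium and pericytes), 0 rose and 1 fell of 16 (Purkinje and granule cells), 3 rose and 0 fell of 16 (striatal projection neurons), 3 rose and 2 fell of 17 (cortical glutamatergic neurons) and 3 rose and 0 fell of 24 (interneurons and neuropeptides). Among receptor, channel and stress lists, 7 rose and 2 fell of 30 (glutamate and GABA receptors), 11 rose and 3 fell of 44 (ion channels), 0 rose and 3 fell of 22 (immediate early genes), 3 rose and 0 fell of 17 (glucocorticoid response), 2 rose and 7 fell of 44 (proteasome), 7 rose and 3 fell of 36 (heat shock proteins), 2 rose and 5 fell of 25 (unfolded protein response), 3 rose and 6 fell of 26 (ATF4 targets) and 9 rose and 2 fell of 51 (deubiquitinases). Among lists of gene expression, 6 rose and 4 fell of 71 (mitochondrial ribosomal proteins), 10 rose and 2 fell of 46 (RNA polymerase II and Mediator) and 13 rose and 4 fell of 57 (splicing factors). Quantile normalization moved several of these counts, to 3 rising and 21 falling mitochondrial ribosomal, 8 and 9 RNA polymerase II and Mediator, 7 and 8 deubiquitinase, 1 and 13 proteasome and 5 and 6 heat shock genes. Over all 18193 genes quantile normalization called 1421 higher and 1297 lower, against 1874 and 689 in the reported fit. Of the choroid plexus, blood and pituitary lists, 0 of 20, 0 of 9 and 0 of 7 genes passed in the reported fit.

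The glucocorticoid response genes had a median change of 0.26, with 0.17 in SCA3 and 0.42 in wt, and 16 of 17 lay above 0. With the spike-in covariate the median was −0.14. A fit on probe sets averaging 4 or more called 6 of 15 higher, against 2261 of 10454 genes. With the GAPDH covariate 1 of 17 rose, against 955 of all 18193 genes. Over the 7 pituitary genes the median was −0.86 with all arrays included, among them SCA3 placebo replicate 2 with its high Gh and Prl.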
